A study of Rattus norvegicus with 30 samples.

Results

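Claudins are the membrane proteins that build the strands of the tight junction, and 10 of their genes were followed here in primary rat inner medullary collecting duct cells: Cldn1, Cldn2, Cldn3, Cldn4, Cldn7, Cldn8, Cldn10, Cldn12, Cldn16 and Cldn19. The genes were taken by their symbol on the array platform, each through the probe set that carries exactly 1 symbol and has the highest mean over all arrays. All 10 were found, each on 1 probe set, among 14506 genes so measured. The study profiled total RNA of the cells on 30 Affymetrix arrays, 3 for each of 10 groups that differ in the osmolality of the medium.

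In 3 of the groups the cells were cultivated throughout at 300, 600 or 900 mosmol/kg, called steady 300, steady 600 and steady 900 below. Another 4 groups were moved from 300 to 600 mosmol/kg for 3, 12, 24 or 48 h. Further groups were moved from 600 to 900 mosmol/kg for 12 or 24 h, and the last was returned from 900 to 300 mosmol/kg for 24 h. The treatment field of all 30 samples names 5 µM cyclosporin A, a calcineurin inhibitor, while no title names it, so all groups share the drug as far as the labels say and none is compared for it. The labels do not give the solute that set the osmolality, the strain, sex and age of the rats, or whether the 3 arrays of a group came from separate cultures. The p-values therefore measure the spread between arrays, which may be technical.

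Each epithelium makes its own mixture of claudins, and the mixture sets which ions pass between the cells. Cldn1, Cldn3, Cldn4, Cldn7 and Cldn8 are the claudins usually found in the collecting duct, where Cldn4 and Cldn8 are linked to a paracellular path for chloride and Cldn1 and Cldn3 to tightening. Cldn2 forms pores for sodium and water in the proximal tubule, Cldn10 exists in a cation-selective and an anion-selective form made from alternative first exons, and Cldn16 and Cldn19 act together in calcium and magnesium uptake in the thick ascending limb. Cldn12 is a broadly expressed claudin whose tail lacks the usual motif for binding the ZO scaffold proteins. The inner medulla works at a high and changing osmolality, so its junctions face steep gradients of salt and urea.

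All values are the deposited log2 values of RMA, a method that background-corrects, normalizes and summarizes the probes of a set, and a difference of 1 is a factor of 2. A level can be compared between groups for 1 gene but not between genes, since probe sets differ in brightness. Array medians lay between 5.63 and 5.76, and arrays of a group correlated at 0.991 to 0.998 over genes. One array of the 3 h group (replicate 3) and one of the 12 h group at 900 mosmol/kg (replicate 9) stood apart, with median absolute differences from their partners of 0.205 and 0.198, and of 0.200 and 0.194, against 0.122 and 0.0971 between those partners. Calls that changed without one of them are given both ways. The 15 measured genes of unrelated tissues (lens, testis, pituitary and others) had group means between 2.98 and 6.04, which marks the low end of the scale. Cldn2 lay under 6.04 in 5 of 10 groups, Cldn10 and Cldn16 in 2 and Cldn8 and Cldn19 in 1, so their values there lie near the low end. Where one side of a comparison lies in that range, the factor given is that of the deposited values, and how it relates to the change in RNA was not tested.

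The markers of the cells changed with osmolality. Averaged over 13 collecting duct genes, the level was 5.86 in steady 300, 8.22 in steady 600 and 9.17 in steady 900, and Aqp2, the vasopressin-regulated water channel that defines principal cells, went from 5.61 to 10.07 and 12.04. In steady 300 cells Aqp2 was thus within the range of the genes of unrelated tissues, although the epithelial genes Epcam at 11.60 and Cdh1 at 11.10 were high there. The 10 epithelial genes averaged 9.81, 10.31 and 10.45, with 7 higher and 2 lower in steady 600 and in steady 900. Averages of fibroblast genes (8.85, 8.35 and 6.80 in steady 300, 600 and 900) and of leukocyte genes (8.24, 7.13 and 6.69) moved the other way. Of 10 fibroblast genes, 2 were higher and 5 lower in steady 600, and 0 higher and 7 lower in steady 900. Of 8 leukocyte genes, 7 were lower in steady 600 and 8 in steady 900, with 0 higher in either. The 7 endothelial genes averaged 7.24, 7.80 and 7.89. Of the endothelial genes, 4 were higher and 1 lower in steady 600 and 3 higher and 1 lower in steady 900, with Pecam1 at 9.44, 9.46 and 9.44. In such bulk RNA, fewer cells of a type and less RNA per cell cannot be told apart. A list of 8 proximal tubule and thin limb genes averaged 5.76, 6.09 and 6.44. Of these, 2 were higher and 1 lower in steady 600 (median change -0.03), and 3 higher and 1 lower in steady 900 (0.13). The water channel Aqp1 was at 7.85, 11.11 and 12.18, and the proximal receptor Lrp2 at 4.92 to 5.63 in all groups. The 7 intercalated cell genes averaged 5.15, 4.58 and 4.66, with 1 lower and 0 higher in steady 600, and 2 lower and 1 higher in steady 900. Of all genes, 13.7% were higher and 13.4% lower in steady 600, and 20.2% and 22.3% in steady 900. The part that other cells had in the claudin values was not tested.

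The claudins differed widely in how far they moved over the 10 groups. The span between the lowest and the highest group mean was 3.94 on the log2 scale for Cldn8, 3.66 for Cldn10, 3.10 for Cldn19, 2.53 for Cldn1 and 1.99 for Cldn16, which are factors of 15.3, 12.7, 8.57, 5.77 and 3.96 between the deposited values. Of these, the lowest means of Cldn8 (5.23), Cldn10 (5.57), Cldn19 (5.72) and Cldn16 (5.84) lie near the low end, so the order of the spans is that of these values only. It was 1.68 for Cldn12, 1.29 for Cldn2, 0.99 for Cldn3, 0.65 for Cldn7 and 0.38 for Cldn4. The 4 widest spans lay above those of 96.3% of all genes or more, and that of Cldn4 above those of 24.1%. All 10 genes differed among the groups by the F test of limma (adjusted p from 4.08e-23 for Cldn10 to 5.07e-04 for Cldn4), as did 73.7% of all genes.

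**Figure D1:**
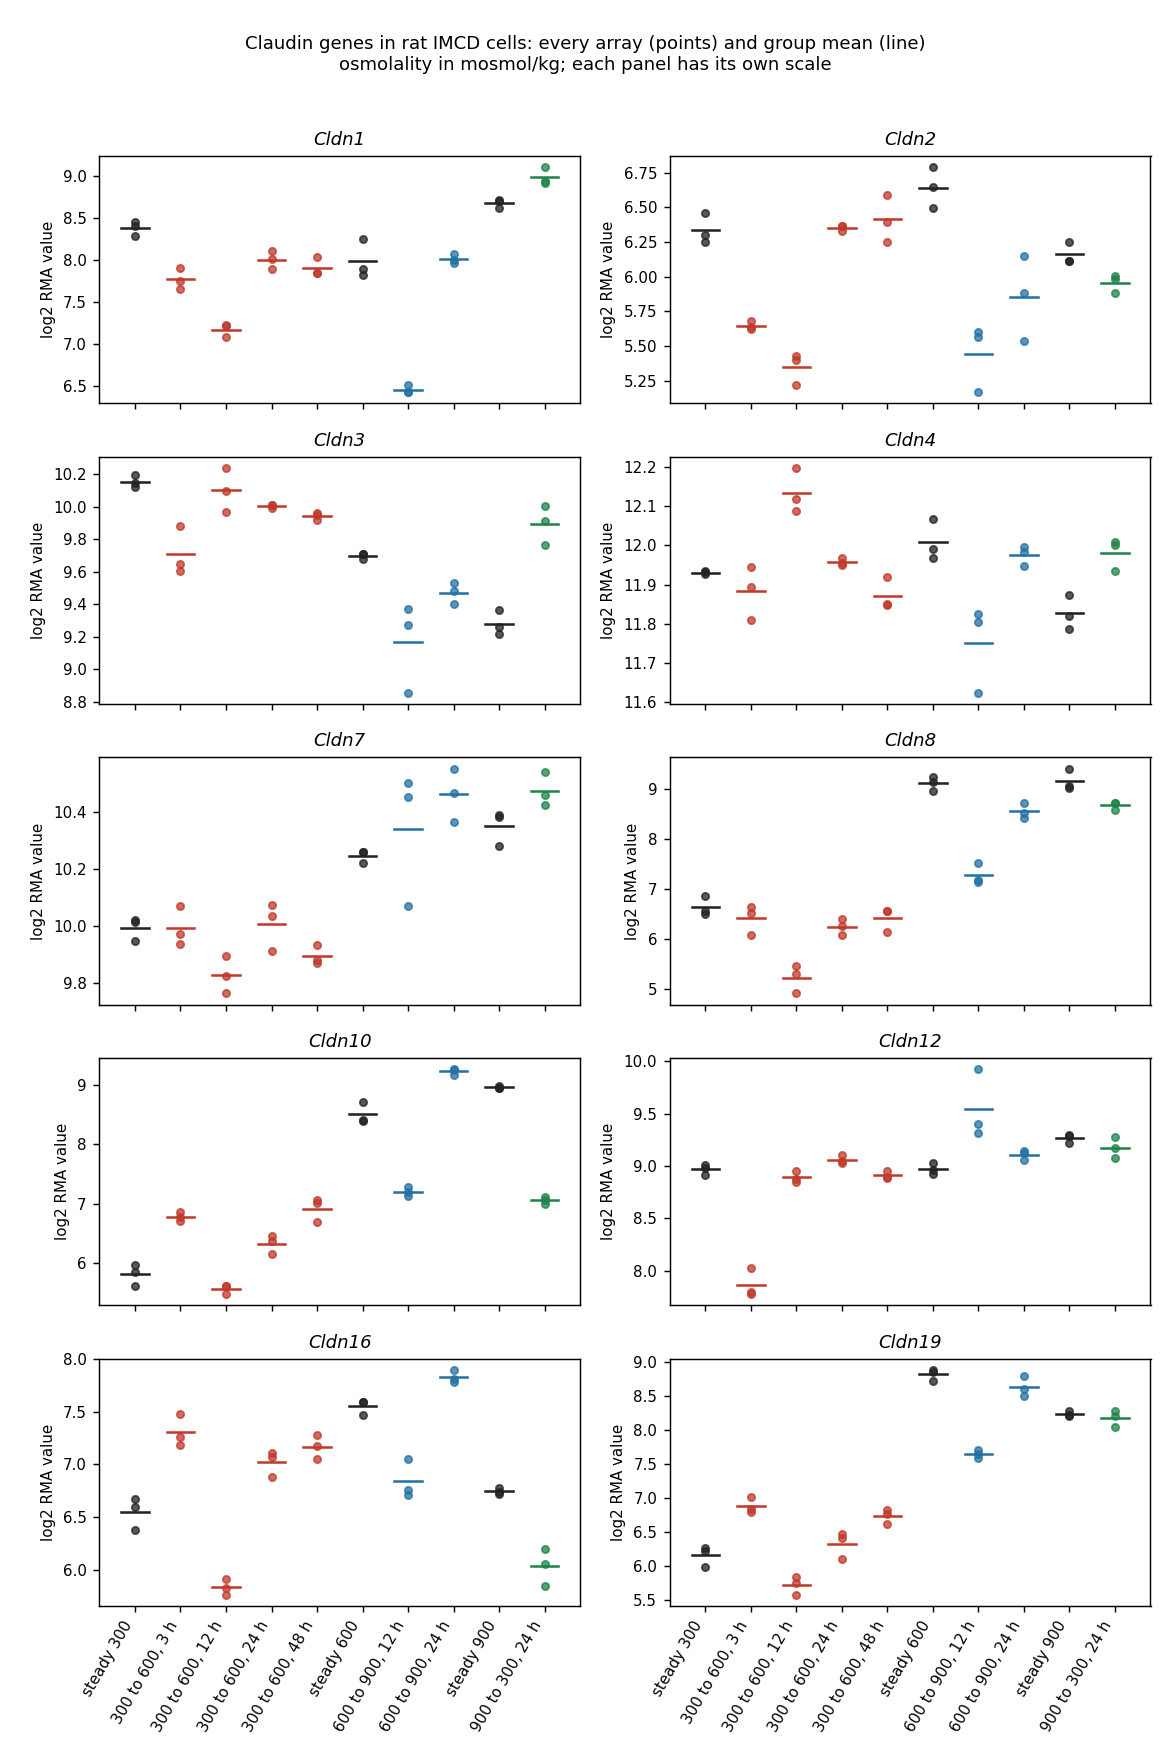
Log2 RMA value of each claudin on every array (points) with the group mean (line), for the 10 groups along the x axis, with a separate y scale in each panel; black marks steady groups, red the step from 300 to 600, blue the step from 600 to 900 and green the return. Cldn8, Cldn10 and Cldn19 sit high in the steady 600 and steady 900 groups and low at 12 h after the step to 600, while Cldn4 spans 0.38 in all.

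Cells kept at 600 mosmol/kg were compared first with cells kept at 300. Of the claudins, 5 were higher and 2 lower in steady 600, where 13.7% of all genes were higher and 13.4% lower (27.1% in all) by limma with Benjamini-Hochberg adjustment over all genes at 0.05. The median change was 0.28 over the claudins and 0.01 over all genes. Cldn8, Cldn10 and Cldn19 rose most, by factors of 5.54 to 6.49, Cldn16 rose by a factor of 2.00, and Cldn1 and Cldn3 fell.

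For Cldn8, a chloride-pathway claudin of the distal nephron (probe set 10752943), the steady 300 arrays read 6.86, 6.51 and 6.57 and the steady 600 arrays 9.26, 9.14 and 8.96. For Cldn10 (probe set 10782020) they read 5.85, 5.60 and 5.97 against 8.71, 8.41 and 8.39. For Cldn19, the magnesium-handling claudin (probe set 10871561), they read 6.27, 5.99 and 6.22 against 8.73, 8.89 and 8.85. In each of these genes the lowest steady 600 array was above the highest steady 300 array by more than the spread within either group. The log2 changes were 2.47 ± 0.15 (SE, adjusted p = 1.19e-13 by limma), 2.70 ± 0.10 (1.84e-18) and 2.66 ± 0.10 (1.90e-18), with n = 3 arrays a group. Cldn16, the partner of Cldn19 in the thick ascending limb (probe set 10755027), read 6.38, 6.60 and 6.68 against 7.59, 7.47 and 7.59, again without overlap, a rise of 1.00 ± 0.10 (4.03e-09).

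The claudins of the barrier type moved less. Cldn1 read 8.45, 8.29 and 8.40 in steady 300 and 8.25, 7.90 and 7.82 in steady 600, and fell by 0.39 ± 0.09 (adjusted p = 0.00165, limma). Cldn3 read 10.19, 10.15 and 10.12 against 9.68, 9.71 and 9.71, tight in both groups and lower in the second, and fell by 0.46 ± 0.10 (5.82e-04). Cldn7, found along the lateral membrane as well as in junctions, rose by 0.25 ± 0.09 (adjusted p = 0.0260). Its call was lost under 6 of 13 alternatives, such as median centring of the arrays (0.0542) or leaving out steady 300 replicate 2 (0.0951). Cldn2 (0.31 ± 0.12, adjusted p = 0.0590), Cldn4 (0.08 ± 0.07, 0.452) and Cldn12 (0.00 ± 0.10, 0.998) did not pass.

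The upstream sequences of the genes that rose most are shown here because they moved together. The promoter table taken from RefSeq (build GRCr8) held 8 of the 10 claudins, not Cldn2 and Cldn4. The 250 bases before the annotated start follow, 5′ to 3′ on the coding strand, for Cldn8 (chr11:41364331-41364580, minus strand), Cldn10 (chr15:102269608-102269857, plus strand) and Cldn19 (chr5:138148325-138148574, plus strand). Capitals mark TGGAAA on either strand, letters that are part of the element that the tonicity factor Nfat5 binds and that sites of other NFAT proteins share. The rest of the Nfat5 element was not searched for.
Cldn8: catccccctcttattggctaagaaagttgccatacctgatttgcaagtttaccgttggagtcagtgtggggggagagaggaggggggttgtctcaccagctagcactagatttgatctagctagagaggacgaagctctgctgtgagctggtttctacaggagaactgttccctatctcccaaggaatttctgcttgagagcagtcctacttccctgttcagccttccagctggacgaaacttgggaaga
Cldn10: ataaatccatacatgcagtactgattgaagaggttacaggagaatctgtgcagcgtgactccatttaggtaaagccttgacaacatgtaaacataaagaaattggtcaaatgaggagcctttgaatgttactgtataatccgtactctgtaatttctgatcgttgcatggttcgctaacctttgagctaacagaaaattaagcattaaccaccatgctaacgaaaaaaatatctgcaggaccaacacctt
Cldn19: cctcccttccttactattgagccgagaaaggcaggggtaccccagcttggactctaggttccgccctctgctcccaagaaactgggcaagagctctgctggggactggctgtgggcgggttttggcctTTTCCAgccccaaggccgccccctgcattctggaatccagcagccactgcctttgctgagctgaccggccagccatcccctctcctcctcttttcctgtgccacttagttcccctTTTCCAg
TGGAAA was found in 2 of the 8 windows, with 2 matches upstream of Cldn19 and 1 upstream of Cldn12, while 19.46% of 27457 promoter windows of this length held it. The grainyhead-type motif AACNNGTT, searched on both strands and sharing no overlap with the first in these windows, was found in 0 of the 8 and in 3.5% of all. A match is a description of these letters only. The table's start equals the outer end of the gene record for 6 of the 8 genes, not for Cldn12 and Cldn19, and the files do not say which of the alternative starts of Cldn10 its probe set reads.

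Cells kept at 900 mosmol/kg showed the same 3 genes far above steady 300. In this comparison 6 claudins were higher and 1 lower, where 20.2% of genes were higher and 22.3% lower (42.4% in all), and the medians were 0.30 for the claudins and -0.00 for all genes. The steady 900 arrays read 8.99, 8.95 and 8.95 for Cldn10, 9.06, 9.42 and 9.02 for Cldn8 and 8.29, 8.23 and 8.20 for Cldn19, all above every steady 300 array. Changes were 3.15 ± 0.10 for Cldn10 (a factor of 8.90 against a steady 300 mean of 5.81, near the low end, adjusted p = 1.13e-20 by limma), 2.52 ± 0.15 for Cldn8 (5.73, 2.28e-14) and 2.08 ± 0.10 for Cldn19 (4.23, 1.40e-16). Cldn16, at 6.74, 6.78 and 6.72, was 0.20 ± 0.10 above steady 300 and did not pass (0.132).

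Cldn3 was the claudin that fell against steady 300, to 9.37, 9.22 and 9.26, a change of -0.87 ± 0.10 (a factor of 1.83, adjusted p = 1.26e-08 by limma). Cldn7 rose to 10.39, 10.38 and 10.28, by 0.36 ± 0.09 (9.22e-04). Cldn1 was higher by 0.30 ± 0.09 (adjusted p = 0.0114, and 0.0639 without steady 300 replicate 2), and Cldn12 by 0.30 ± 0.10 (0.0175, and 0.0649 without steady 300 replicate 1). Cldn2 (-0.18 ± 0.12) and Cldn4 (-0.10 ± 0.07) did not pass.

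Between the 2 hyperosmotic steady cultures the claudins split. From steady 600 to steady 900, 3 rose and 5 fell, against 11.3% and 12.9% of genes (24.2% in all), with medians of -0.07 for the claudins and -0.01 for all genes. Cldn1 rose by 0.69 ± 0.09 (adjusted p = 1.16e-06, limma) and Cldn10 by 0.46 ± 0.10 (0.00101). The pair that works in magnesium handling fell, Cldn16 by 0.81 ± 0.10 (3.11e-07) and Cldn19 by 0.58 ± 0.10 (4.66e-05), each with all steady 900 arrays below all steady 600 arrays. Cldn2 fell by 0.48 ± 0.12 (0.00280) and Cldn3 by 0.42 ± 0.10 (0.00166). The change of Cldn8 was 0.05 ± 0.15 (0.886), with overlapping arrays. Calls for Cldn12 (0.30 ± 0.10, adjusted p = 0.0302) and Cldn4 (-0.18 ± 0.07, 0.0410) were lost with several single arrays left out, for example at 0.101 without steady 600 replicate 3 for Cldn12 and at 0.170 without steady 600 replicate 2 for Cldn4.

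**Figure D2:**
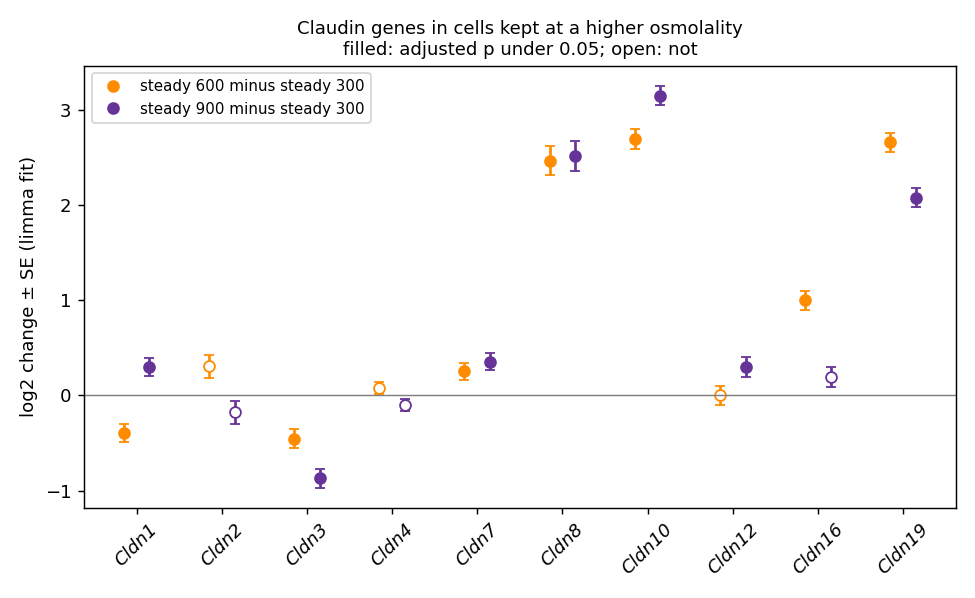
Log2 change of each claudin (y axis, with the standard error from limma) in steady 600 (orange) and steady 900 (purple) cells against the same steady 300 arrays; filled points passed an adjusted p of 0.05. Cldn8, Cldn10 and Cldn19 lie above 2 in both comparisons, Cldn16 lies at 1.00 in steady 600 and 0.20 in steady 900, and Cldn3 lies below 0 in both.

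Thick ascending limb genes were examined beside Cldn16 and Cldn19, whose usual place is that segment, and beside Cldn10, whose form here is not known. Of 6 such genes, 3 rose from steady 300 to steady 600 and 0 fell, 4 rose to steady 900 and 0 fell, where 13.7% and 20.2% of all genes rose, and their average was 4.52, 5.12 and 5.09 in steady 300, 600 and 900 (ranges over arrays 4.44 to 4.57, 5.00 to 5.19 and 5.06 to 5.12). Slc12a1, the sodium-potassium-chloride carrier that defines the segment, went from 4.59 to 6.74 and 6.66, while Umod, its most abundant product, stayed between 4.18 and 4.44 in all 10 groups, in the range of genes of unrelated tissues. Among collecting duct genes 10 of 13 rose to steady 600 and 11 to steady 900, against the same shares of all genes, with 0 falling in either. The part of either list in the rise of the claudins was not tested.

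The step from 300 to 600 mosmol/kg showed when the claudins moved. At 3 h, 3 were higher and 4 lower than steady 300, where 12.1% of genes were higher and 29.5% lower (41.6% in all), with medians of -0.13 for the claudins and -0.04 for all genes. Over all genes, lower calls were 70.9% of calls, and 58.3% after quantile normalization. Cldn10 read 6.70, 6.86 and 6.77, Cldn16 7.19, 7.26 and 7.48, and Cldn19 6.79, 6.84 and 7.02. All were above every steady 300 array, with rises of 0.97 ± 0.10 (adjusted p = 2.17e-08, limma), 0.76 ± 0.10 (1.05e-06) and 0.72 ± 0.10 (1.91e-06). At this time 6 of the 15 genes of unrelated tissues also rose and 0 fell, with a median of 0.21, and their part in these rises was not tested.

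Cldn12 fell most at 3 h. It read 8.92, 9.01 and 8.98 in steady 300 and 7.80, 7.78 and 8.03 at 3 h, far below, a fall of 1.10 ± 0.10 (a factor of 2.15, adjusted p = 1.94e-09 by limma). Cldn2 went from 6.25, 6.30 and 6.46 to 5.64, 5.62 and 5.68, a fall of 0.69 ± 0.12 (3.33e-05), and Cldn1 to 7.75, 7.91 and 7.66, a fall of 0.61 ± 0.09 (7.32e-06). Cldn3 fell by 0.44 ± 0.10 (6.03e-04, and 0.0912 after cyclic loess). Cldn4, Cldn7 and Cldn8 had overlapping arrays and did not pass, at -0.05, -0.00 and -0.22, and Cldn4 and Cldn7 were above 0 after quantile normalization or cyclic loess. Without the 3 h array that stood apart, 7 claudins were called, as with it.

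By 12 h most claudins were at their lowest. Against steady 300, 1 was higher and 5 lower, with 11.9% of genes higher and 22.6% lower (34.5% in all) and medians of -0.34 for the claudins and -0.01 for all genes. Cldn8 read 5.30, 4.92 and 5.46, below every steady 300 array, a fall of 1.42 ± 0.15 (a factor of 2.68, adjusted p = 1.87e-08 by limma). Cldn1 read 7.21, 7.08 and 7.22, a fall of 1.21 ± 0.09 (2.31, 3.79e-11), and Cldn2 5.42, 5.22 and 5.40, a fall of 0.99 ± 0.12 (1.99, 1.38e-07). Cldn16 fell by 0.71 ± 0.10 (2.11e-06) and Cldn19 by 0.43 ± 0.10 (0.00114), both of them genes that had been higher than steady 300 at 3 h.

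For the other claudins no fall passed at 12 h. Cldn4 was higher at 12 h, at 12.12, 12.20 and 12.09 against 11.93, 11.93 and 11.94, by 0.20 ± 0.07 (adjusted p = 0.0147 by limma, and 0.0696 without 12 h replicate 2). Cldn3 (-0.05 ± 0.10), Cldn7 (-0.17 ± 0.09), Cldn12 (-0.08 ± 0.10) and Cldn10 (-0.24 ± 0.10, adjusted p = 0.0708) did not pass. Of the epithelial list, 3 of 10 genes rose and 4 fell at 12 h, among them Cdh1, whose mean went from 11.10 to 10.16, while Epcam was at 11.60 in both groups. Of the collecting duct list 1 of 13 rose and 5 fell, with an average of 5.86 in steady 300 and 5.58 at 12 h. Of 7 endothelial genes 5 fell and 0 rose (average 7.24 to 6.64, median change -0.74), of 10 fibroblast genes 5 fell and 0 rose (8.85 to 8.35, -0.43), and of 8 leukocyte genes 1 rose and 0 fell. The part of these changes in the dip of the claudins was not tested.

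Tests between successive times share arrays with the ones above. From 3 to 12 h, 3 claudins rose and 6 fell, where 23.1% of genes rose and 17.8% fell (40.9% in all). Cldn16 fell by 1.47 ± 0.10 (a factor of 2.76, adjusted p = 5.45e-12 by limma), Cldn10 by 1.21 ± 0.10 (2.79e-10), Cldn8 by 1.20 ± 0.15 (3.19e-07), Cldn19 by 1.16 ± 0.10 (4.93e-10) and Cldn1 by 0.60 ± 0.09 (7.62e-06). Cldn12 regained its level with a rise of 1.02 ± 0.10 (4.26e-09), to 8.85, 8.88 and 8.96. The smaller calls, for Cldn2 (-0.30, adjusted p = 0.0473), Cldn3 (0.39, 0.00186) and Cldn4 (0.25, 0.00236), were lost after cyclic loess (0.0628, 0.105 and 0.392), and that of Cldn2 also without the 3 h array that stood apart (-0.28, 0.103). In all, the call of Cldn2 was lost under 9 of 13 alternatives.

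Between 12 and 24 h, 6 claudins rose and 1 fell, where 17.5% of genes rose and 9.51% fell (27.0% in all), with medians of 0.68 for the claudins and 0.01 for all genes. Cldn16 rose by 1.18 ± 0.10 (adjusted p = 4.45e-10, limma), Cldn8 by 1.02 ± 0.15 (6.36e-06), Cldn2 by 1.01 ± 0.12 (1.63e-07), Cldn1 by 0.83 ± 0.09 (6.80e-08), Cldn10 by 0.76 ± 0.10 (1.38e-06) and Cldn19 by 0.61 ± 0.10 (2.91e-05). Each of these had all 24 h arrays above all 12 h arrays. The arrays of these times did not overlap for 9 of the 10 claudins, and the share of all genes was not counted. The fall of Cldn4 by 0.18 ± 0.07 (0.0426) was lost under most alternatives, such as median centring (0.155).

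At 24 and 48 h few claudins differed from steady 300. At 24 h, 2 were higher and 1 lower than steady 300, where 9.40% of genes were higher and 13.0% lower (22.3% in all): Cldn10 by 0.52 ± 0.10 (adjusted p = 2.95e-04, limma), Cldn16 by 0.47 ± 0.10 (7.73e-04) and Cldn1 by -0.38 ± 0.09 (0.00332). At 48 h, 3 were higher and 1 lower, where 9.57% of genes were higher and 12.0% lower (21.6% in all). Cldn10 read 7.06, 7.00 and 6.68 at 48 h, Cldn16 7.28, 7.18 and 7.05, and Cldn19 6.62, 6.83 and 6.76. These stood above all steady 300 arrays, by 1.11 ± 0.10 (1.32e-09), 0.62 ± 0.10 (2.77e-05) and 0.58 ± 0.10 (6.64e-05), while Cldn1 was lower by 0.47 ± 0.09 (3.30e-04). Cldn8 at 6.57, 6.57 and 6.16 overlapped steady 300 and did not pass (-0.22 ± 0.15, 0.371).

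From 24 to 48 h 2 claudins rose and 0 fell, where 1.88% of genes rose and 0.917% fell (2.79% in all). They were Cldn10, by 0.59 ± 0.10 (adjusted p = 4.04e-04, limma), and Cldn19, by 0.40 ± 0.10 (0.0209, and 0.234 without 24 h replicate 3). Changes of the other 8 lay between -0.15 for Cldn12 and 0.18 for Cldn8. The 24 h and 48 h arrays did not overlap for 5 of the 10 claudins, so lack of overlap by itself is not a call.

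**Figure D3:**
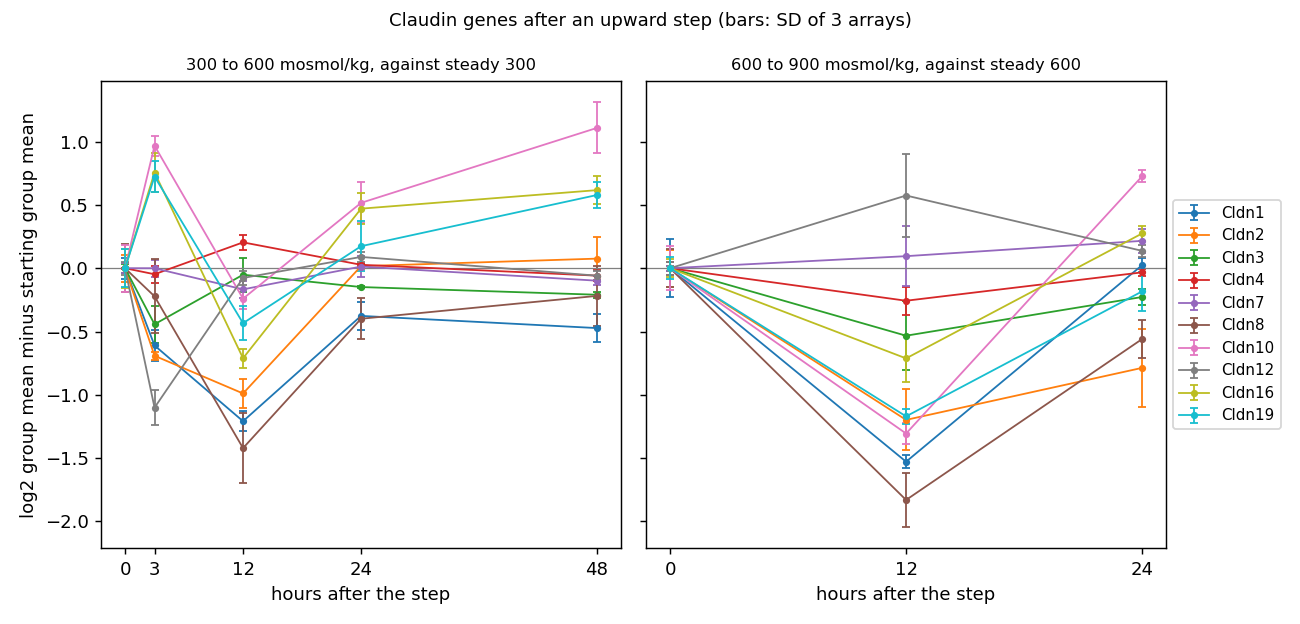
Difference of each claudin's group mean from the starting culture (y axis, log2) against hours after the step (x axis), left for 300 to 600 and right for 600 to 900 mosmol/kg; bars are the SD of 3 arrays. At 12 h Cldn8, Cldn1 and Cldn2 are the lowest lines on the left, and on the right they are joined by Cldn10 and Cldn19.

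At 48 h the claudins that mark the steady hyperosmotic cultures were still far from steady 600. In this comparison 0 claudins were higher and 5 lower, where 9.47% of genes were higher and 12.5% lower (22.0% in all). Cldn8 was lower by a factor of 6.45 (-2.69 ± 0.15, adjusted p = 3.23e-14 by limma), Cldn19 by 4.25 (-2.09 ± 0.10, 1.21e-15) and Cldn10 by 3.01 (-1.59 ± 0.10, 4.51e-13), with no array of either group in the range of the other. Cldn16 and Cldn7 were lower by 0.38 ± 0.10 (0.00555) and 0.35 ± 0.09 (0.00248). In the collecting duct list 10 of 13 genes were lower at 48 h than in steady 600 and 0 higher, and Aqp2 was at 7.06 against 10.07, whose part was not tested.

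The step from 600 to 900 mosmol/kg began from cells that already held high levels, and it also brought a dip. At 12 h, 1 claudin was higher and 8 lower than steady 600, where 12.5% of genes were higher and 25.3% lower (37.8% in all), with medians of -0.94 for the claudins and -0.03 for all genes. Lower calls were 67.0% of calls over all genes, and 54.3% after quantile normalization. Cldn8 read 7.18, 7.15 and 7.53, Cldn1 6.43, 6.43 and 6.52, and Cldn10 7.20, 7.28 and 7.12. All lay below every steady 600 array, by 1.83 ± 0.15 (a factor of 3.56, adjusted p = 1.03e-10 by limma), 1.53 ± 0.09 (2.88, 1.98e-13) and 1.31 ± 0.10 (2.47, 2.85e-11).

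Other falls at 12 h were those of Cldn2, to 5.60, 5.17 and 5.56 (by 1.20 ± 0.12, adjusted p = 3.11e-09 by limma), Cldn19, to 7.59, 7.71 and 7.66 (by 1.17 ± 0.10, 2.05e-10), and Cldn16, to 6.76, 6.71 and 7.05 (by 0.71 ± 0.10, 1.52e-06). Cldn3 fell by 0.53 ± 0.10 (6.12e-05) and Cldn4 by 0.26 ± 0.07 (0.00206, and 0.811 after cyclic loess). Cldn12 rose by 0.57 ± 0.10 (3.41e-05), reading 9.31, 9.40 and 9.92, of which the highest is the array that stood apart. Without that array Cldn12 rose by 0.39 and Cldn3 fell by 0.38, both still past the threshold, and Cldn7 was higher by 0.23 (adjusted p = 0.00929, against 0.10 and 0.422 with it). Marker lists moved at this time as well: 8 of 8 leukocyte genes fell (median -1.11), 7 of 10 fibroblast genes fell and 1 rose, 4 of 7 endothelial genes fell and 1 rose, 5 of 10 epithelial genes fell and 3 rose, and 5 of 13 collecting duct genes fell and 4 rose. Their part in the falls of the claudins was not tested.

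Across all groups, 9 of the 10 claudins had their lowest mean in a 12 h group, where 24.1% of all genes did. For Cldn2, Cldn7, Cldn8, Cldn10, Cldn16 and Cldn19 this was 12 h after the step to 600, for Cldn1, Cldn3 and Cldn4 it was 12 h after the step to 900, and Cldn12 was lowest at 3 h. Neighbours in these orders overlapped in several cases: the lowest group and the next did so for Cldn2, Cldn3, Cldn4, Cldn7, Cldn10 and Cldn16, but not for Cldn1, Cldn8, Cldn12 and Cldn19. At 12 h after the step to 900 the Cldn3 arrays read 9.27, 9.37 and 8.86, against a steady 900 mean of 9.28. The value of 8.86 is from the array that stood apart, so the place of Cldn3 in this count rests on it. The place of Cldn4 rests on the scaling. After quantile normalization Cldn4 differed from steady 600 by -0.0959 at 12 h at 900 and by -0.149 in steady 900. After cyclic loess these values were -0.0297 and -0.135, so under both its lowest mean was not in a 12 h group.

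By 24 h at 900 mosmol/kg fewer claudins stood below their starting level. Against steady 600, 2 claudins were higher and 2 lower, where 11.2% of genes were higher and 14.7% lower (25.9% in all). Cldn10 read 9.18, 9.25 and 9.26, above every other group, a rise of 0.73 ± 0.10 (adjusted p = 2.24e-06, limma). Cldn2 stayed low at 6.15, 5.53 and 5.89 (-0.79 ± 0.12, 7.15e-06), and Cldn8, at 8.73, 8.43 and 8.52, was lower by 0.56 ± 0.15 (0.00635). Cldn16 was higher by 0.27 ± 0.10 (0.0461, and 0.147 without 24 h replicate 9), a call lost under 7 of 13 alternatives. Cldn1, at 8.00, 7.96 and 8.07, overlapped steady 600 (0.02 ± 0.09). The change from 12 to 24 h at 900 was not tested; the arrays did not overlap for Cldn8, which read 7.15 to 7.53 at 12 h and 8.43 to 8.73 at 24 h.

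Compared with cells kept at 900, those at 24 h had 2 claudins higher and 2 lower, where 9.47% of genes were higher and 8.83% lower (18.3% in all). Cldn16 was higher by 1.08 ± 0.10 (a factor of 2.11, adjusted p = 3.75e-09 by limma) and Cldn19 by 0.40 ± 0.10 (0.00530, and 0.0546 without 24 h replicate 2). Cldn1 was lower by 0.67 ± 0.09 (4.96e-06) and Cldn8 by 0.61 ± 0.15 (0.00502, and 0.0523 without steady 900 replicate 2). Cldn10 was 0.27 ± 0.10 above steady 900 and did not pass (0.0688).

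Changes after the 2 upward steps were set against each other by an interaction term. At 12 h the term passed for 5 claudins, 1 higher and 4 lower after the step to 900, where 6.18% of genes were higher and 7.25% lower (13.4% in all). Cldn10 changed by -0.24 after the step to 600 and by -1.31 after that to 900, and Cldn19 by -0.43 and -1.17. The first step took Cldn10 from 5.81 to 5.57 and Cldn19 from 6.16 to 5.72, near the low end, so the terms do not show that either gene dipped less after that step. Cldn12 changed by -0.08 and 0.57, Cldn3 by -0.05 and -0.53, and Cldn4 by 0.20 and -0.26. At 24 h it passed for Cldn2 (0.02 and -0.79) and Cldn1 (-0.38 and 0.02), 1 lower and 1 higher, where 5.46% and 7.48% of genes were so (12.9% in all). For Cldn8 the term did not pass at 12 h (-0.41 ± 0.22, adjusted p = 0.247 by limma) or at 24 h (-0.16 ± 0.22, 0.724). At 12 h the first step took Cldn8 from 6.65 to 5.23, near the low end, so the 12 h term does not show that it dipped alike after both steps.

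The return from 900 to 300 mosmol/kg was followed for 24 h. Against steady 900, 2 claudins were higher and 3 lower, where 19.3% of genes were higher and 18.5% lower (37.7% in all). Cldn10 fell most, from 8.99, 8.95 and 8.95 to 7.11, 7.06 and 6.99, a fall of 1.91 ± 0.10 (a factor of 3.75, adjusted p = 1.42e-14 by limma) with both groups tight. Cldn16 fell to 6.06, 6.20 and 5.85 (by 0.71 ± 0.10, 1.60e-06), near the low end of the scale. Cldn8, at 8.73, 8.73 and 8.59, fell by 0.48 ± 0.15 (0.0125, and 0.0983 without steady 900 replicate 2), and Cldn19, at 8.28, 8.05 and 8.22, overlapped steady 900 (-0.05 ± 0.10, 0.739).

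The 2 rises were in the barrier claudins. Cldn3 went to 9.77, 10.01 and 9.92, by 0.61 ± 0.10 (adjusted p = 8.59e-06, limma), and Cldn1 to 8.94, 9.10 and 8.91, by 0.31 ± 0.09 (0.00944, and 0.0646 without return replicate 2). The return group held the highest mean of Cldn1 in the series.

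Returned cells did not match cells kept at 300. Against steady 300, 5 claudins were higher and 3 lower, where 20.4% of genes were higher and 22.2% lower (42.6% in all). Cldn8 was higher by a factor of 4.10 (2.03 ± 0.15, adjusted p = 3.46e-12 by limma), Cldn19 by 4.07 (2.03 ± 0.10, 3.98e-16) and Cldn10 by 2.37 (1.25 ± 0.10, 2.32e-11). Cldn1 was higher by 0.60 ± 0.09 (3.98e-06) and Cldn7 by 0.48 ± 0.09 (2.64e-05). Cldn16 was lower by 0.52 ± 0.10 (1.11e-04), Cldn2 by 0.38 ± 0.12 (0.0105, and 0.0602 without steady 300 replicate 3) and Cldn3 by 0.26 ± 0.10 (0.0346, and 0.112 with the replicate numbers as a block). The call of Cldn3 was lost under 9 of 13 alternatives. Collecting duct genes were also above steady 300 in the returned cells, 10 of 13 higher and 0 lower with an average of 7.71, and the average of the fibroblast list was 6.75 against 8.85. Their part was not tested.

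**Figure D4:**
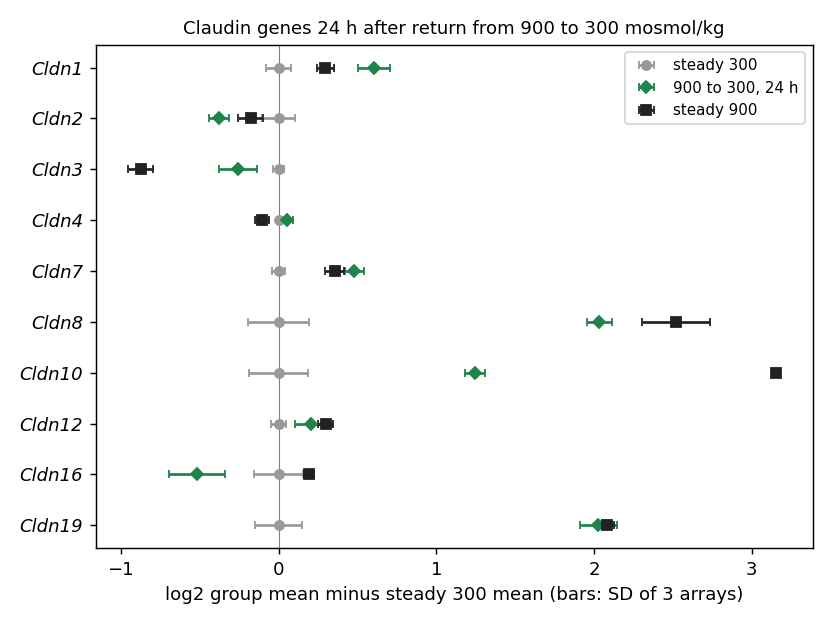
Group means of each claudin (x axis, log2, minus the steady 300 mean; bars are the SD of 3 arrays) in steady 300 (grey), 24 h after the return from 900 to 300 mosmol/kg (green) and steady 900 (black). After the return Cldn8 and Cldn19 each lie 2.03 above steady 300, Cldn8 at 0.48 below steady 900 and Cldn19 at 0.05 below it. Cldn10 lies between the steady groups at 1.25, and Cldn16 lies below both at -0.52.

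Other members of the family were measured as well, 13 of 14 listed. From steady 300 to steady 600, 3 rose and 2 fell, and to steady 900, 2 rose and 4 fell, with medians of -0.03 and -0.00. Of all genes 27.1% and 42.4% were called in these comparisons. Cldn6, a claudin of embryonic and immature epithelia, fell by 0.56 ± 0.08 in steady 600 (adjusted p = 2.26e-06, limma) and by 1.54 ± 0.08 in steady 900, from a mean of 11.92 to 10.38. Cldn23 fell by 0.93 ± 0.10 in steady 600. Cldn15, a cation pore best known in the intestine, rose by 0.76 ± 0.08 in steady 600, and Cldn17, an anion pore, by 1.59 ± 0.22 in steady 900. The 13 genes averaged 5.64 in steady 300, 5.64 in steady 600 and 5.60 in steady 900. These averages lie within the range of genes of unrelated tissues, although Cldn6 was far above it. How changes near that low end relate to RNA was not tested. At 12 h after the step to 600, 4 fell and 0 rose, where 34.5% of all genes were called, with Cldn15 and Cldn23 falling by 1.08 ± 0.08 and 1.11 ± 0.10. At 12 h after the step to 900, 3 fell and 1 rose against 37.8% of all genes, with Cldn15 again falling by 1.12 ± 0.08. Cldn11 rose by 1.23 ± 0.13 at 3 h, from 4.71 to 5.94, a level within the range of genes of unrelated tissues.

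The partners of claudins in the junction were taken from a list with 28 measured genes. To steady 600, 10 rose and 3 fell, and to steady 900, 11 rose and 7 fell, with medians of 0.05 and 0.02, where 27.1% and 42.4% of all genes were called. Cgnl1, the scaffold paracingulin, rose by 0.84 ± 0.08 in steady 600 and 2.34 ± 0.08 in steady 900, from a mean of 7.92 to 10.27. Marveld2, the tricellulin of tricellular contacts, rose by 0.74 ± 0.13 in steady 600, Tjp3, the ZO-3 scaffold, by 1.17 ± 0.07 in steady 900, and Cxadr, an adhesion receptor, fell by 1.07 ± 0.08 there. Tjp1, the ZO-1 scaffold, had means between 9.54 and 9.88 in all groups. At 3 h 4 rose and 6 fell, where 41.6% of all genes were called. Pard6b rose by 0.65 ± 0.08, while Marveld3 fell by 0.69 ± 0.10 and its relative Ocln by 0.56 ± 0.09. At 12 h after the step to 600, 4 rose and 6 fell, and after that to 900, 6 rose and 4 fell, against 34.5% and 37.8% of all genes called. Jam2, an adhesion molecule, rose at both, by 0.77 ± 0.09 and 1.31 ± 0.09, while Magi3 and Ildr1 fell by 0.94 ± 0.08 and 0.84 ± 0.08 at the first. At the second, Prkci fell by 0.64 ± 0.07 and Cgnl1 rose by 0.65 ± 0.08.

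A list of 25 measured genes was meant to hold those known to act on claudins or on epithelial fate, and it also holds Cap1, a cyclase-associated protein entered for an alias of Prss8. Of the 25, 10 rose and 6 fell in steady 600 and 11 rose and 6 fell in steady 900, with medians of 0.05 and 0.11, where 27.1% and 42.4% of all genes were called. Tmprss2, a membrane serine protease, rose by 1.83 ± 0.12 and 2.74 ± 0.12, and Stk39, the kinase that WNK kinases switch on, by 1.14 ± 0.08 and 1.72 ± 0.08. Zeb2, a repressor of epithelial genes, fell by 1.73 ± 0.11 in steady 900. Prss8, the channel-activating protease prostasin, fell by 1.48 ± 0.07 at 3 h and rose by 1.04 ± 0.07 from 3 to 12 h. At 12 h after the step to 600, 7 of the list rose and 7 fell, where 34.5% of all genes were called. Stk39 rose by 1.29 ± 0.08 and Epha2 by 1.10 ± 0.08, while Snai2 fell by 0.75 ± 0.11. At 12 h after the step to 900, 8 rose and 6 fell, where 37.8% of all genes were called. Epha2 rose by 0.98 ± 0.08 and Twist1 by 1.29 ± 0.11 there. After the return, 1 rose and 11, Cap1 among them, fell against steady 900, where 19.3% of all genes rose and 18.5% fell. Tmprss2 fell by 1.77 ± 0.12.

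**Figure D5:**
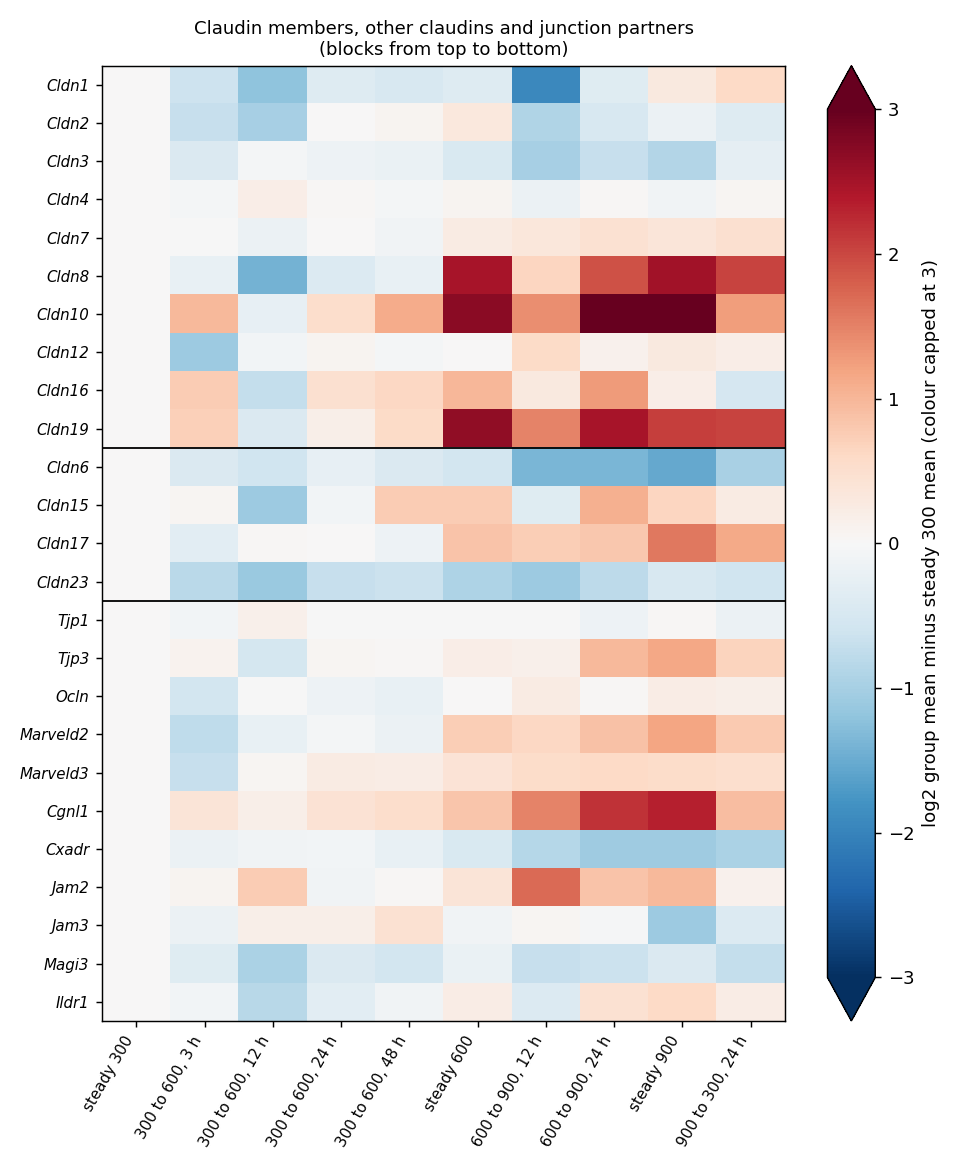
Colour shows each gene's group mean minus its steady 300 mean (log2, colour capped at 3), for the 10 claudins followed here (top), 4 other claudins (middle) and 11 junction partners (bottom), with the 10 groups along the x axis. Cldn8, Cldn10 and Cldn19 stand out in red in both steady hyperosmotic groups, as does Cgnl1 in steady 900, and the deepest blue in the top block is that of Cldn1 at 12 h after the step to 900.

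Likeness over the 10 group means was described by Pearson's r, with no test, since the points share arrays and the same shifts in culture. Cldn8 and Cldn19 were alike at 0.95, Cldn10 and Cldn19 at 0.91, Cldn7 and Cldn19 at 0.88, Cldn7 and Cldn8 at 0.87 and Cldn8 and Cldn10 at 0.86, while Cldn3 ran opposite to Cldn10 at -0.73. Over all genes, the nearest to Cldn8 were Nek8 (0.99), Gstm2 (0.98) and Gabrp (0.98), and those nearest to Cldn19 were Sostdc1 (0.99), Syne4 (0.97) and Fxyd4 (0.97), the last a sodium pump regulator of the collecting duct. Dpy19l3, Zfyve21 and Pgap6 were nearest to Cldn10 (each 0.97), Mycn, Sp110 and Sp100 to Cldn1 (each 0.98), and Mr1, Acmsd and Klc4 to Cldn16 (0.93, 0.92 and 0.89).

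For the smaller movers the nearest genes were Tor4a, Rab25 and Pkp3 for Cldn7 (0.98, 0.98 and 0.97), Stk17b, Mtap and Sec61a1 for Cldn3 (0.98, 0.97 and 0.97), Zfp472, Otulin and Smndc1 for Cldn12 (0.98, 0.96 and 0.95) and Tax1bp3, Abcg3l3 and Orc3 for Cldn2 (0.97, 0.95 and 0.95). Those of Cldn4 were 3 olfactory receptor genes, Or2ag17, Or1j12b and Or4k35, at 0.89, 0.86 and 0.82. Cldn4 spanned only 0.38 over these means and its changes moved with the scaling, so its likenesses rest on small differences. In the gene order of GRCr8, some claudins are next to each other: Cldn3 and Cldn4 were alike at 0.65, Cldn8 and Cldn17 at 0.88, and Cldn1 and Cldn16 at -0.06.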

How the data were processed

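Total RNA of 30 samples was hybridised to a rat Affymetrix whole-transcript array. The authors deposited log2 values per probe set, made with RMA per the submitters' processing notes; its version and settings are not stated. Probe sets were named from the platform annotation: of 29170, 15310 carry 1 symbol, 323 several and 13537 have none listed. For each of 14506 genes the 1-symbol probe set with the highest mean over all arrays was kept (527 genes had several).

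One mean per group was fitted over all 30 arrays with limma 3.58.1 (R 4.3.3), with Benjamini-Hochberg adjustment over all genes and a threshold of 0.05. All folds are from log2 differences, and the number of arrays limits their precision. Genes beyond the claudins were named from the 3 of each list with the smallest adjusted p, not all of which are printed, or as the 3 with the highest Pearson's r. Tjp1 and the markers named were chosen after their values were seen. Members and lists were chosen with earlier results of these data known. Alternatives were quantile normalization, median centring, cyclic loess, leaving out genes with a mean below the 30th percentile, averaging the probe sets of a gene, a replicate block, a fit of the compared arrays only, and leaving out each array. The fit was tested on simulated data. No array was left out. Gene order and promoters are those of RefSeq (GRCr8).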

Additional observations from a re-analysis of the deposited data

Results flagged for a closer look

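In 7 cases a claudin changed differently after the step from 600 to 900 mosmol/kg than after the step from 300 to 600, by the interaction term of limma over all genes; the steady arrays of each start enter only their own step. Values are the change after the second step minus that after the first, on the log2 scale. The first step left Cldn10 and Cldn19 near the low end of the scale. At 12 h the difference was -1.07 ± 0.14 for Cldn10 (SE, adjusted p = 4.22e-06), -0.74 ± 0.14 for Cldn19 (5.29e-04), 0.65 ± 0.14 for Cldn12 (0.00188), -0.46 ± 0.09 for Cldn4 (6.75e-04) and -0.48 ± 0.14 for Cldn3 (0.0185). Among these, Cldn10, Cldn19 and Cldn12 passed under every alternative run, Cldn4 did not after cyclic loess (0.122), and Cldn3 did not after quantile normalization (0.0579), median centring (0.0717), cyclic loess (0.114), a fit of the compared arrays only (0.0783) or leaving out replicate 2 at 12 h at 600 (0.0595). Without the array at 900 mosmol/kg that stood apart (12 h replicate 9) 6 claudins passed, with Cldn7 added at 0.40 (0.00317). At 24 h the difference was -0.80 ± 0.17 for Cldn2 (0.00125) and 0.40 ± 0.13 for Cldn1 (0.0449), and the latter was lost with most single arrays left out, for example at 0.155 without steady 600 replicate 3. The Cldn2 arrays at 24 h after the second step spread from 5.53 to 6.15. Groups hold 3 arrays each, so no single array was tested as an outlier.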

How the results depend on the processing

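Over 2460 recomputed values, 2285 kept direction and side of the threshold, 95 lost a call, 37 gained one and 43 changed sign, none of the last being a call (0 of 43). The total includes 180 values from averaging probe sets, which could hardly differ since each claudin has 1 probe set. The filter on dim genes and the fit of the compared arrays keep the log2 changes, so neither could change a sign. The count of claudins called fell to 3 from 5 in the 12 h difference of the steps after cyclic loess. In the 24 h difference of the steps it was 1, not 2, with only the compared arrays fitted, and 1 to 2 with single arrays left out. From 24 to 48 h it was 1, not 2, with only the compared arrays, and 1 to 2 with single arrays left out. Uncalled values that changed sign were, after quantile normalization, Cldn4 (0.11) and Cldn7 (0.18) at 3 h and Cldn16 in the 12 h difference of the steps (0.09). After median centring they were Cldn12 in steady 600 (-0.0129), Cldn4 at 24 h at 900 (0.0109) and Cldn16 in the 12 h difference (0.0722). After cyclic loess they were Cldn12 in steady 600 (-0.0182), Cldn4 (0.14) and Cldn7 (0.21) at 3 h, Cldn2 at 24 h (-0.0026), Cldn4 at 24 h at 900 (0.0534), Cldn16 in the 12 h difference (0.0206), and Cldn3 (0.0053) and Cldn4 (0.0119) in the 24 h difference.

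With single arrays left out, the values that crossed 0 ran from -0.0281 to 0.0236 for Cldn12 in steady 600 against 300, -0.0385 to 0.0275 for Cldn7 at 3 h, -0.0259 to 0.0763 for Cldn2 and -0.02 to 0.0606 for Cldn7 at 24 h, -0.108 to 0.0847 for Cldn16 in the 12 h difference, -0.164 to 0.0531 for Cldn1 at 48 h against steady 600, -0.0614 to 0.156 for Cldn1 at 24 h at 900, -0.0764 to 0.122 for Cldn8 between steady 900 and 600, -0.12 to 0.0154 for Cldn3 at 12 h, -0.0126 to 0.156 for Cldn2 at 48 h, -0.0289 to 0.139 for Cldn2 from 24 to 48 h and -0.105 to 0.0102 for Cldn19 after the return against steady 900. The cause of these shifts was not tested.

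The replicate numbers of the titles were checked for pairing. Deviations of same-numbered arrays from their group means correlated at medians of 0.0076 to 0.0283. Over 0.1 were 3 of 45 pairs numbered 1, 6 of 45 numbered 2, 2 of 21 numbered 3 and 0 of 3 numbered 9. Arrays of different numbers and groups had a median of -0.0084, with 20 of 291 pairs over 0.1. These correlations cannot show whether same-numbered arrays shared a culture or a batch. With the replicate block the 24 h difference called 1 claudin, not 2, and the sign changed for Cldn1 at 24 h at 900 (-0.0166) and Cldn12 in the 24 h difference (-0.0057).

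Over all genes, the share of lower calls moved with the scaling: from 43.6% to 55.1% from 3 to 12 h with cyclic loess, from 56.7% to 46.1% at 24 h at 900 with median centring, and from 54.0% to 43.9% (quantile), 37.5% (centring) and 39.4% (loess) in the 12 h difference. In the 24 h difference 2976 genes were called with only the compared arrays, not 1877.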
